A study of Sus scrofa with 4 samples.

Results

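The genes described here were 9 genes of the NRF2 pathway and of glutathione synthesis, namely NFE2L2, KEAP1, SLC7A11, GCLC, GCLM, GSR, TXNRD1, NQO1 and HMOX1. They were chosen by gene name, as every probe that the array annotates with one of these names, which gave 21 of the 43603 probes and 9 of the 34853 gene names on the array. The names were picked with the response of these same arrays to serotonin in view, so the values below are a description of the genes and carry no test. RNA was taken from a porcine intramuscular preadipocyte line (PIP), derived from the muscle of a single pig and used between passages 26 and 35, and from the mature adipocytes (pMA) made from it. The PIP array held confluent preadipocytes without any agent. The pMA array held cells kept for 4 days in medium with insulin (50 ng/ml), dexamethasone (0.25 μM), octanoate (2 mM) and oleate (200 μM) and given no stimulus. The other arrays held pMA made the same way and stimulated for 12 hours, either with serotonin, whose dose the labels write as 100 μM/ml, or with TNF-α at 2.5 µg/ml.

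NRF2, the product of NFE2L2, is a transcription factor that KEAP1 holds in the cytoplasm and hands over for degradation. When oxidants or electrophiles modify KEAP1, NRF2 escapes, enters the nucleus and switches on genes that import cystine, make and recycle glutathione, supply reduced thioredoxin and detoxify quinones and heme. In fat cells these genes are part of the defence against the oxidants that lipid loading and inflammation produce.

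Each condition had 1 array, hybridised with RNA pooled within that condition, so there was no replicate check and no p-value could be computed. A level is given below as the multiple of the 75th percentile of the intensities on the same array, and a log2 ratio is the difference of the log2 levels of 2 arrays. The 75th percentile lay between 479 and 566 intensity units, and between 56.5% and 66.0% of the probes were well above background. The only spread that could be measured was that of repeated spots within an array, which gave a technical SD of a log2 ratio of 0.17 to 0.20 and holds no biological variation. The number of arrays limits the precision of every value, and faint signal limits some of them further. None of the spots of the 9 genes was saturated, and 83 of their 84 probe values were well above background, the exception being probe 6 of TXNRD1 in unstimulated pMA. For a gene with several probes, the probe with the highest mean level is called probe 1 and stands for the gene.

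The cells' labels were checked against marker genes. Of 8 adipocyte markers, 5 were well above background in pMA and 5 in PIP. FABP4, the fatty acid carrier of fat cells, was well above background in pMA and not in PIP. PLIN1, which coats lipid droplets, was not above background on any array. ADIPOQ, the adipokine of mature fat, was well above background in PIP and not in pMA, with faint raw intensities of 22 and 17. Of the 6 adipocyte markers with a ratio of pMA to PIP, 5 were above 0 and 3 at least 2-fold higher. Their median log2 ratio was 0.72. Over all gene names 58.1% were above 0 and 9.94% were 2-fold higher. CIDEC gave log2 ratios of 3.88 and 0.75 on 2 probes, and PPARG, faint on both arrays, gave 1.07. Bulk RNA does not tell fewer cells of a type from less RNA per cell. The summed level of the muscle markers was 656 in unstimulated pMA, 609 after TNF-α and 174 after serotonin, that of the preadipocyte and fibroblast markers was 900.2, 755 and 600.03, and that of the adipocyte markers was 3.23, 8.35 and 11.7. LPL, the lipase that frees fatty acids from circulating fat, made up 10.65 of the last sum, while FABP4 was 6.83-fold lower after serotonin than in unstimulated pMA. These sums moved along with the comparisons below, and their part in the values of the 9 genes was not tested. MYOD1, MYF5 and MYH2, which define muscle cells, were not well above background on any array. The 3 muscle markers that were measured were MYOG, DES and ACTA1, and actin probes can share signal with other actin genes. ACTA1 alone made up 645.6 of the muscle sum in unstimulated pMA and 168.5 of that after serotonin. Its probes gave serotonin log2 ratios of -2.63 to -0.26, while DES had -1.02 and MYOG -0.01.

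The probes were 60 bases long with 35% to 55% GC. No pair of the 21 probes shared a run of 15 bases or more, and the longest run shared with any other probe on the array was 16 bases, so that the several probes of a gene read different stretches of its RNA. The sequences of 5 probes are shown because the results turn on how well probes of 1 gene tell the same story. The 3 probes of NQO1 gave nearly the same serotonin ratio. For pMA against PIP, HMOX1 probe 3 and TXNRD1 probe 4 differed from the other probes of their genes. All 5 probes can be read without a stop codon in at least 1 of 3 reading frames. They are written 5′ to 3′ from the array design, with no part set in capitals.
NQO1 probe 1: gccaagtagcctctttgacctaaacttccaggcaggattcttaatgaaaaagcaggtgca
NQO1 probe 2: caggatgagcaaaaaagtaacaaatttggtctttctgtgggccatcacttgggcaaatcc
NQO1 probe 3: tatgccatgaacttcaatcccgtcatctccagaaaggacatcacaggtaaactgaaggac
HMOX1 probe 3: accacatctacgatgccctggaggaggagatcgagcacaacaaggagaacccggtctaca
TXNRD1 probe 4: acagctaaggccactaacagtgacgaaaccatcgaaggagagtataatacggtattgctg

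Most of the 9 genes had a lower level in pMA than in PIP with the scaling used here, all 9 were higher after serotonin than in unstimulated pMA, and none differed by 2-fold after TNF-α. For 8 of the 9 genes, and for 20 of the 21 probes, the serotonin array held the highest level of the 4. NFE2L2 was the exception, with its highest level in PIP. The genes were picked for their serotonin response, and the share of all gene names highest on that array was not computed. Nothing is therefore read from these counts. The plot of probe levels shows a dip from PIP to pMA followed by a peak after serotonin, with the dip missing in HMOX1 and in probe 4 of TXNRD1.

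**Figure D1:**
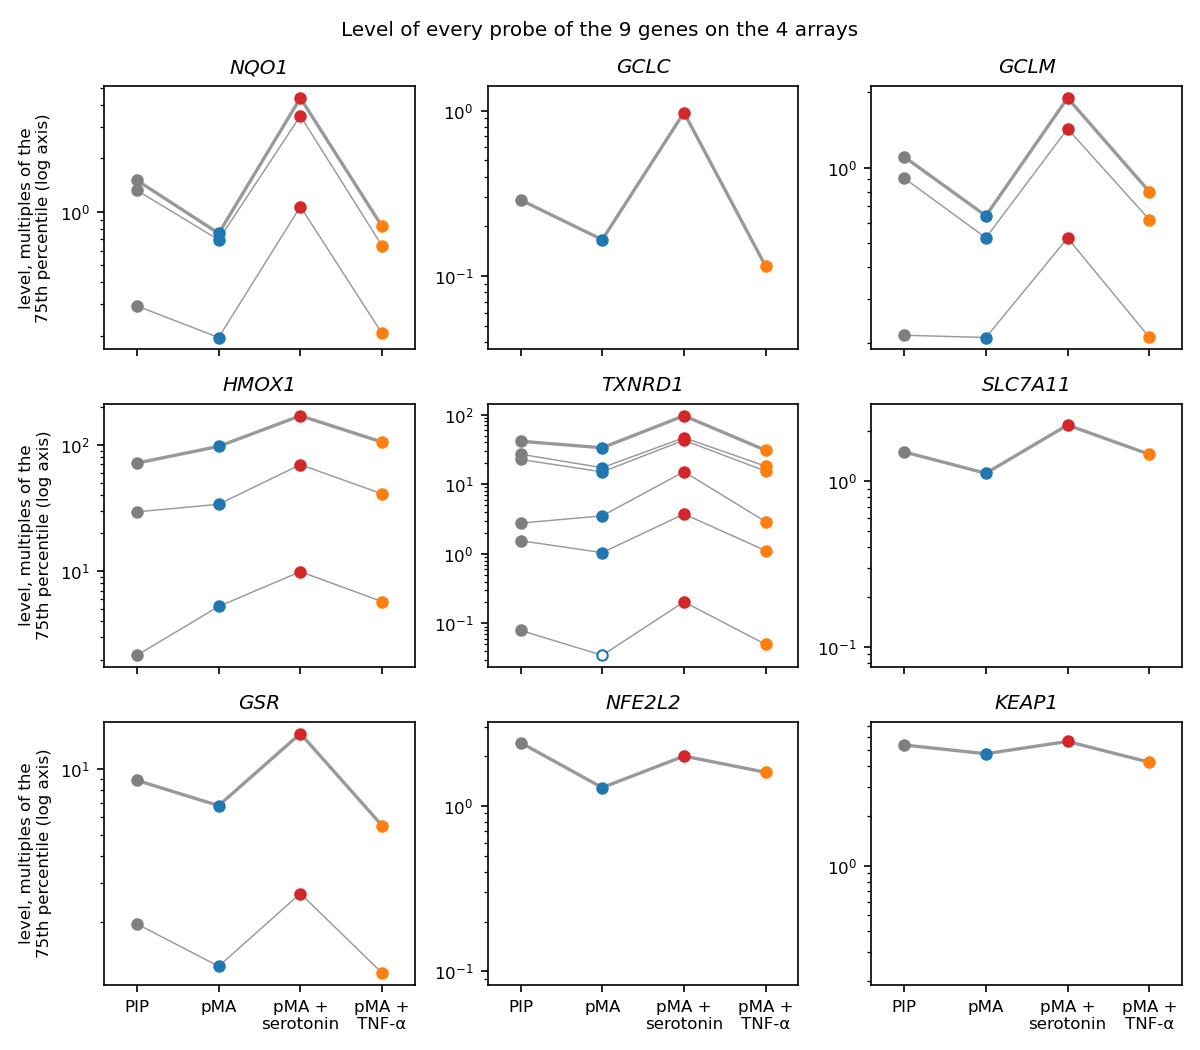
Level of each of the 21 probes of the 9 genes, as a multiple of the 75th percentile of the same array on a log axis that differs between panels, on the arrays of PIP, unstimulated pMA, pMA with serotonin and pMA with TNF-α. Each line is 1 probe, the thick line is the probe that stands for the gene, the open circle was not well above background, and each point is 1 array without error. Of the 21 lines, 20 peak on the serotonin array, for genes picked for their serotonin response.

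Differentiation was examined first, by setting unstimulated pMA against PIP. Of the 9 genes, 8 were lower in pMA and 1, HMOX1, was higher, apart from TXNRD1 and KEAP1 turning to 0.07 and 0.20 on the log2 scale when arrays were scaled to spiked-in control RNAs. The 9 genes had a median log2 ratio of -0.43 against 0.12 over all 18633 gene names with a ratio, of which 58.1% were above 0. None of the 9 reached a 2-fold difference, while 13.5% of all gene names did, 9.94% higher and 3.56% lower. The scaling mattered here, since the median of all gene names was -0.22 with arrays scaled to their medians, with 4.50% higher and 8.68% lower, and 0.52 with the spiked-in controls, with 22.5% higher and 1.69% lower. With the median scaling 4 of the 9 genes were 2-fold lower, and with the spiked-in controls none was. Relative to the median of all gene names, 8 of the 9 genes lay lower, and the difference between the median of the 9 and that of all gene names was -0.55 on the log2 scale. A scaling by 1 number per array moves both alike and leaves such a difference nearly as it is. The genes were picked for their serotonin response, which was measured against this same unstimulated pMA array. A low reading on that array would favour the choice of a gene and also lower its ratio to PIP. Nothing is therefore read from the contrast with all gene names.

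**Figure D2:**
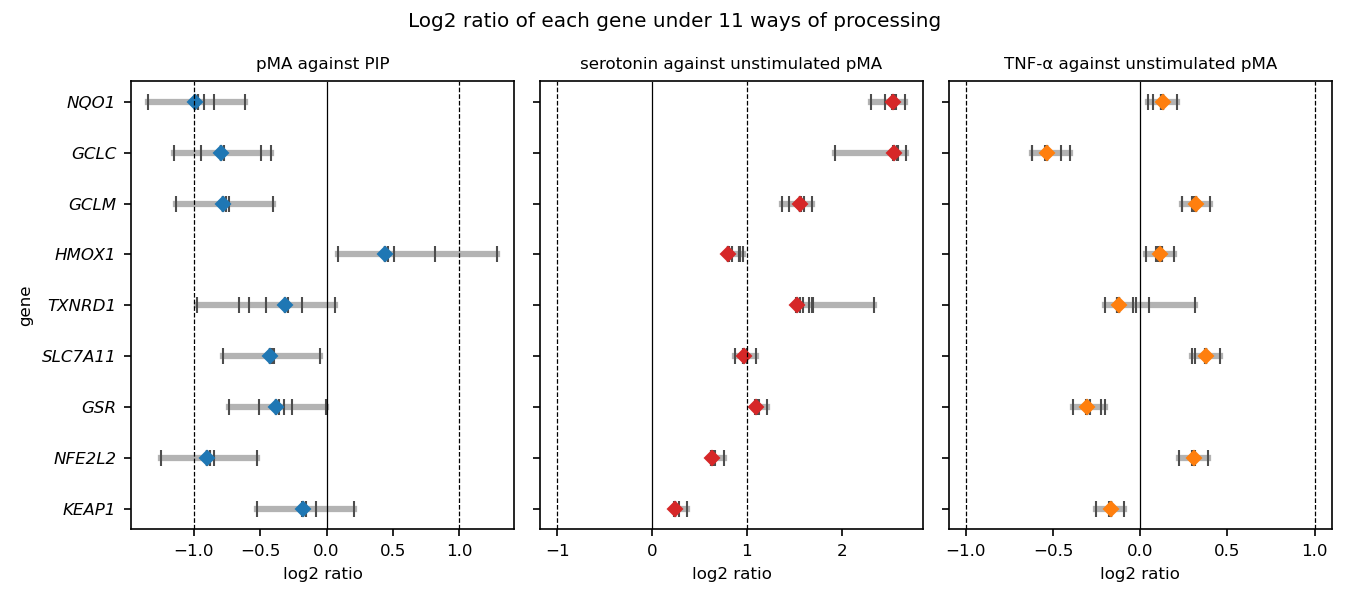
Log2 ratio of each of the 9 genes in the 3 comparisons under 11 ways of processing the intensities (ticks), with the reported value as a diamond, the range as a grey bar and dashed lines at 2-fold. After serotonin every tick lies above 0, while for pMA against PIP the ticks of TXNRD1 and KEAP1 lie on both sides of 0.

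Serotonin was then set against unstimulated pMA. All 9 genes and all 21 probes were higher after serotonin, whereas 51.2% of the 19095 gene names with a ratio were above 0. Of the 9 genes, 5 were at least 2-fold higher, namely GCLC, NQO1, GCLM, TXNRD1 and GSR, and none was 2-fold lower. Over all gene names 6.82% passed 2-fold, 2.08% higher and 4.73% lower, or 3.09% and 3.48% with the spiked-in controls. As the genes were picked for this response, nothing is read from that contrast. The 9 log2 ratios ranged from 0.25 to 2.55 with a median of 1.09, and the median over all gene names was 0.01. Just inside the 2-fold threshold lay GSR with a log2 ratio of 1.09, and just outside it lay SLC7A11 with 0.97, which was 1.00 with median scaling and 1.09 with the spiked-in controls.

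TNF-α set against the same pMA array gave another picture. Of the 9 genes, 5 were higher and 4 lower, none reached 2-fold, and the median log2 ratio was 0.11. Over all 19782 gene names 50.7% were above 0 and 3.56% reached 2-fold, 2.21% higher and 1.34% lower, or 1.89% and 1.87% with median scaling. The values ranged from -0.54 for GCLC to 0.38 for SLC7A11, and 4 of the 9 lay within the technical SD of 0.20. Both stimulations share the unstimulated pMA array as their control, so an error in that array would enter both ratios, and the direct ratio of serotonin to TNF-α was therefore computed as well. It was above 0 for all 9 genes and at least 2-fold for 5, with a median log2 ratio of 1.24. Of the 21862 gene names with that ratio 6.9% passed 2-fold, 1.83% higher and 5.07% lower, and 46.3% were above 0. The direct ratio still uses the serotonin array, for whose response the genes were picked, so nothing is read from that contrast. The serotonin level was above that of PIP in 8 of the 9 genes, in KEAP1 by only 0.07 on the log2 scale. The share over all gene names was not computed for this count, which uses the same serotonin array, and nothing is read from it.

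**Figure D3:**
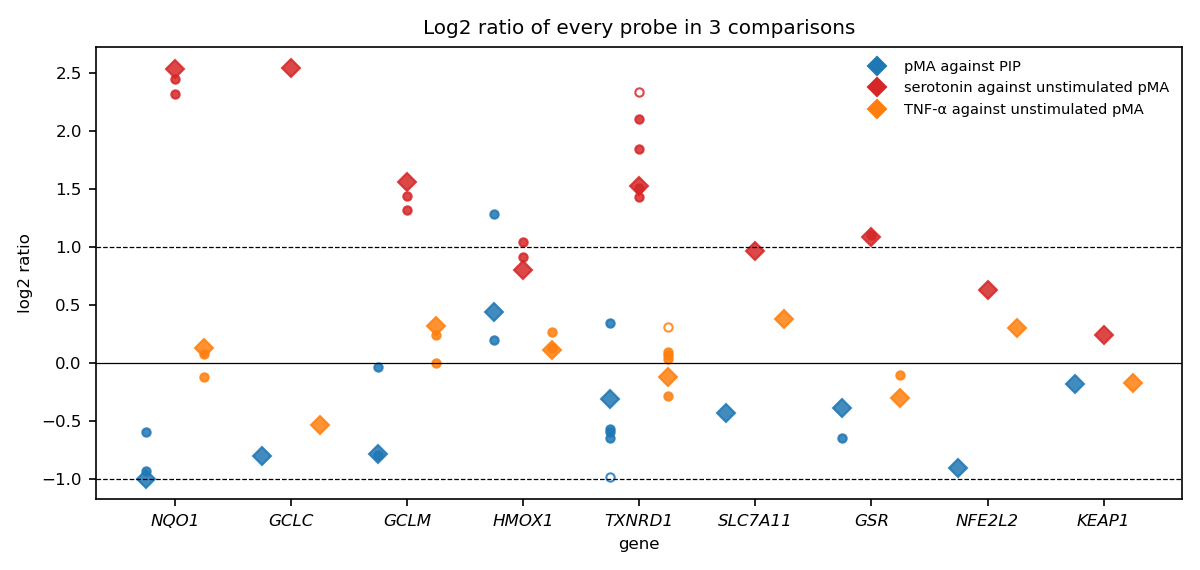
Log2 ratio of each of the 21 probes in pMA against PIP (blue), serotonin against unstimulated pMA (red) and TNF-α against unstimulated pMA (orange), with diamonds for the probe that stands for the gene, open symbols for bounds and dashed lines at 2-fold. Every red symbol lies above 0, and the symbols of GCLC and NQO1 are the highest, at 2.55 and 2.54.

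The regulators had the smallest serotonin ratios of the 9. NFE2L2, which encodes NRF2 itself, had a level of 2.41 in PIP, 1.29 in unstimulated pMA, 2.00 after serotonin and 1.59 after TNF-α. It was thus highest in PIP, and the stimulated arrays lay between PIP and unstimulated pMA. The log2 ratios were -0.90 for pMA against PIP, 0.63 for serotonin and 0.31 for TNF-α. KEAP1, the adaptor that directs NRF2 to degradation, had levels of 5.34 in PIP, 4.73 in pMA, 5.61 after serotonin and 4.21 after TNF-α. Its 4 levels differed by less than any other gene of the 9, and its ratios of -0.17 for differentiation and -0.17 for TNF-α were smaller than the technical SD. After serotonin it had a log2 ratio of 0.25 and place 5185 among the gene names ranked by that ratio.

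SLC7A11, the cystine carrier that brings in the limiting amino acid of glutathione, had levels of 1.5 in PIP, 1.12 in pMA, 2.18 after serotonin and 1.45 after TNF-α. Both stimuli left it higher than unstimulated pMA, with log2 ratios of 0.97 for serotonin and 0.38 for TNF-α. The last was the highest ratio of the 9 genes after TNF-α.

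GCLC, the catalytic subunit of glutamate cysteine ligase, which carries out the rate-limiting step of glutathione synthesis, was read by 1 probe. Its level was 0.289 in PIP, 0.166 in pMA, 0.974 after serotonin and 0.115 after TNF-α, which made it the gene with the widest range of the 9. It was 5.86-fold higher after serotonin and 1.45-fold lower after TNF-α than in unstimulated pMA, and serotonin stood 8.49-fold above TNF-α. The raw intensities of 80 in pMA and 64 after TNF-α were faint, and with the normexp background model in place of the scanner program's correction the log2 ratio for serotonin was 1.93 in place of 2.55.

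GCLM, the modifier subunit of the same ligase, was read by 3 probes. Probe 1 had levels of 1.10 in PIP, 0.642 in pMA, 1.90 after serotonin and 0.802 after TNF-α. The log2 ratios of the 3 probes for serotonin were 1.56, 1.44 and 1.32, so they differed by little more than the technical SD. For differentiation probes 1 and 2 gave -0.78 and -0.79 while probe 3, the faintest, gave -0.03. After TNF-α the 3 probes of GCLM gave 0.32, 0.24 and 0.00, and the probe of GCLC gave -0.54.

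GSR, glutathione reductase, which turns oxidised glutathione back into its reduced form, had levels on probe 1 of 8.85 in PIP, 6.79 in pMA, 14.5 after serotonin and 5.50 after TNF-α. Its probes gave log2 ratios of 1.09 and 1.10 for serotonin, and both were lower in pMA than in PIP and lower after TNF-α than in unstimulated pMA, with log2 ratios of -0.30 and -0.10 in the last.

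TXNRD1, thioredoxin reductase of the cytosol, was read by 6 probes, the most of the 9 genes. Probe 1 had levels of 41.6 in PIP, 33.5 in pMA, 96.7 after serotonin and 30.8 after TNF-α, so the serotonin array stood apart from the other 3. Probe 4, whose sequence is shown above, had 2.77, 3.52, 15.2 and 2.90. On the log2 scale the serotonin ratio was 1.53 on probe 1, 1.44 on probe 2, 1.51 on probe 3, 2.11 on probe 4 and 1.84 on probe 5. Probe 6 was well above background on the other arrays but not in pMA, which put its serotonin level at least 5.07-fold higher. All 6 probes thus passed 2-fold, and their ratios differed by more than the technical SD of 0.17. Probe 4 was also the only one of the 6 that was higher in pMA than in PIP, with a log2 ratio of 0.35, while probes 1, 2, 3 and 5 lay between -0.65 and -0.31. Whether these probes read different transcripts of the gene was not tested.

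NQO1, the quinone reductase that is a standard readout of NRF2 activity, had levels on probe 1 of 1.5 in PIP, 0.754 in pMA, 4.38 after serotonin and 0.825 after TNF-α. It was 5.80-fold higher after serotonin on probe 1, 5.00-fold on probe 2 and 5.47-fold on probe 3. For differentiation the 3 log2 ratios were -0.99, -0.93 and -0.59, and for TNF-α they were 0.13, -0.12 and 0.08, all within the technical SD. GCLC and NQO1 held places 27 and 29 among the 19095 gene names ranked by their serotonin ratio.

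HMOX1, heme oxygenase 1, which breaks down heme, had levels on probe 1 of 71.8 in PIP, 97.4 in pMA, 170.2 after serotonin and 105.4 after TNF-α. It was the only gene of the 9 that was higher in pMA than in PIP, and its 3 probes gave log2 ratios of 0.44, 0.20 and 1.28 for that step. Probe 3, whose sequence is shown above, went from 2.16 in PIP to 5.26 in pMA and was the only probe of the 21 that passed 2-fold between them. After serotonin the probes were closer to each other, with log2 ratios of 0.81, 1.04 and 0.92, on both sides of the 2-fold threshold. HMOX1 and SLC7A11 are also known targets of other stress pathways.

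**Figure D4:**
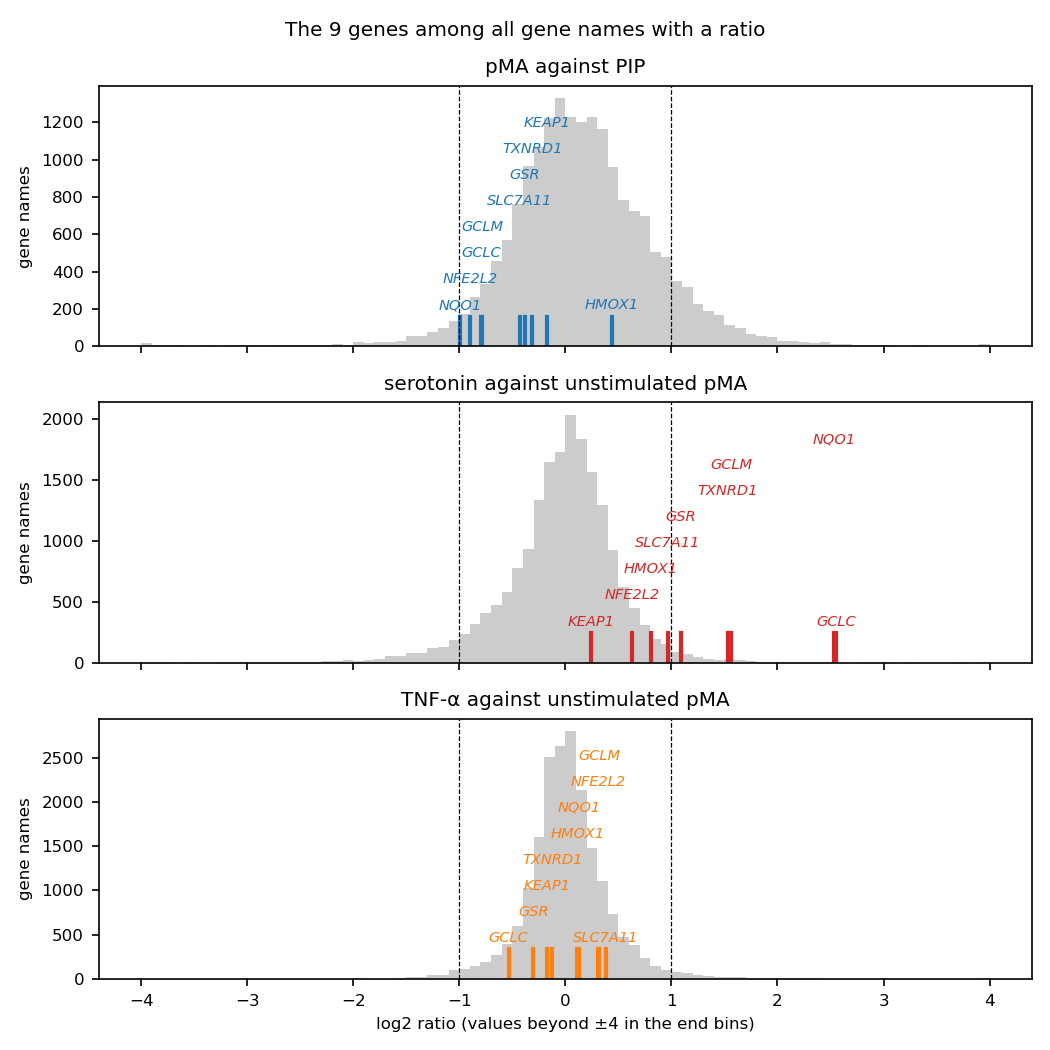
Number of gene names by log2 ratio in bins of 0.1 (grey) for pMA against PIP, serotonin against unstimulated pMA and TNF-α against unstimulated pMA, with the 9 genes marked by short lines and names, and dashed lines at 2-fold. After serotonin all 9 lie to the right of 0 and 5 lie to the right of the 2-fold line, while after TNF-α all lie between the dashed lines.

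The gene names whose levels over the 4 arrays were most like those of GCLC and NQO1 were then looked up among 4675 gene symbols, by the Euclidean distance between log2 levels centred on each gene's own mean. Closest to GCLC were RGS4 at a distance of 0.55, NQO1 at 0.55 and TIPARP at 0.77. Closest to NQO1 were GCLC at 0.55, RDH10 at 0.70 and RGS4 at 0.70. With 4 arrays such a likeness is a description, and the serotonin array sets most of it.

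Other genes of the same chemistry were read from 8 pathway lists, of which 7 lists on redox and stress held 122 genes, with 61 that had a serotonin ratio. Of these 61, 8 were at least 2-fold higher and 3 at least 2-fold lower after serotonin, with a median log2 ratio of 0.05. Over all gene names 2.08% were 2-fold higher and 4.73% 2-fold lower in that comparison. The lists were chosen with earlier results of these data known, so nothing is read from that contrast.

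In the list of other glutathione genes, 10 had a ratio. After serotonin GPX3, the secreted glutathione peroxidase, was 5.61-fold higher, CHAC1, which breaks glutathione down, was 2.99-fold lower, and the median log2 ratio was -0.17. The levels of GPX3 were 7.83 in PIP, 18.6 in pMA, 104.5 after serotonin and 10.1 after TNF-α, and its 4 probes gave serotonin ratios of 2.30 to 2.54 on the log2 scale. GSS, the enzyme of the second and last step of glutathione synthesis, had levels of 4.98 in PIP, 5.24 in pMA, 7.18 after serotonin and 4.76 after TNF-α, a log2 ratio of 0.46 for serotonin. From PIP to pMA, GGT1, which cleaves glutathione outside the cell, was 2.62-fold and GPX3 2.38-fold higher, and after TNF-α none of the 10 passed 2-fold. GGT1 was read by 1 probe, which was faint, with raw intensities of 25 in PIP and 62 in pMA.

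Of the 9 thioredoxin and peroxiredoxin genes, none passed 2-fold after serotonin or TNF-α, and TXN, thioredoxin itself and the substrate of TXNRD1, had log2 ratios of 0.10 and -0.27 there. TXNIP, the inhibitor of thioredoxin, was 7.87-fold higher in pMA than in PIP, on 9 probes with log2 ratios of 2.72 to 3.16, and had a log2 ratio of -0.79 after serotonin. Of the 8 genes of NADPH supply, which feeds both reductases, none passed 2-fold in any comparison. The highest after serotonin was PGD of the pentose phosphate pathway, with a log2 ratio of 0.98, named after its value was seen.

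Among 16 genes of conjugation, carbonyl reduction and export, 5 were at least 2-fold higher after serotonin and none lower, with a median log2 ratio of 0.21. Over all gene names the shares were 2.08% and 4.73%. As this list too was chosen with earlier results of these data known, nothing is read from that contrast. AKR1C1 and AKR1C4, carbonyl reductases, had log2 ratios of 3.73 and 2.13, and UGT1A6, a glucuronosyltransferase, 3.68. The remaining pair, named after their values were seen, were MGST1, a membrane glutathione transferase, with 1.71 to 1.80 over 7 probes, and PTGR1, with 1.48 and 1.62 on 2 probes. After TNF-α, where none of the 9 genes passed 2-fold, UGT1A6 was 3.79-fold higher and ABCG2, an exporter, 2.54-fold higher, while ABCG2 had a log2 ratio of -0.13 after serotonin. The level of UGT1A6 was 0.348 in PIP, 0.141 in pMA, 1.80 after serotonin and 0.533 after TNF-α. From PIP to pMA, EPHX1, an epoxide hydrolase, was 4.93-fold higher, while ABCG2 was 3.01-fold and UGT1A6 2.48-fold lower. The 4 probes of ABCG2 gave log2 ratios of -1.59 to -0.68 for that step and of -0.84 to -0.13 after serotonin. UGT1A6 was read by 1 probe, which was faint in pMA with a raw intensity of 67.

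In the heme and iron list the transferrin receptor TFRC was at least 2.41-fold higher after serotonin, since it was not well above background in pMA, and the other 3 genes lay between -0.04 and 0.44 on the log2 scale. Of 6 partners and regulators of NRF2, HSPB8, a small heat shock protein, passed 2-fold after serotonin, with a log2 ratio of 1.02 and 0.66 to 1.14 over its 7 probes. SRXN1 and BACH1 matched no gene name on the array and were not analysed here.

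SLC7A11, CHAC1 and the amino acid genes are also targets of ATF4, the factor of the integrated stress response. Of 8 further genes of that response and of cystine supply, none was 2-fold higher after serotonin and 2 were 2-fold lower, SLC1A1, a glutamate and cysteine carrier, by 3.60-fold and PSAT1, an enzyme of serine synthesis, by 2.43-fold. The median log2 ratio was -0.52, and 1 of the 8 was above 0. Over all gene names 2.08% were 2-fold higher, 4.73% 2-fold lower and 51.2% above 0. This list too was chosen with earlier results of these data known, so nothing is read from that contrast. A part of ATF4 in the values of SLC7A11 was not tested. SLC3A2, the partner chain of SLC7A11, had levels of 19.2 in PIP, 12.4 in pMA, 9.77 after serotonin and 11.4 after TNF-α, and its serotonin ratio of -0.34 on the log2 scale was opposite in sign to that of SLC7A11. The other of its 2 probes gave -0.15, within the technical SD of 0.17. For pMA against PIP the 2 probes gave -0.63 and 0.23. From PIP to pMA HSPA5, a chaperone, was 4.00-fold and CTH, which makes cysteine, 3.89-fold lower.

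The last list held targets of the aryl hydrocarbon receptor (AHR), since NQO1 and UGT1A6 are also known as targets of that receptor. Of its 4 genes with a ratio, CYP1A1 and TIPARP passed 2-fold after serotonin. CYP1A1, the classical target, was at least 407-fold higher, with a level of 16.4 after serotonin. Neither unstimulated pMA nor TNF-α gave a signal well above background, while PIP did, with a level of 0.222. The lower of the 2 CYP1A1 probes gave a log2 value of 7.12 for serotonin. The paper also lists CYP1A1 as higher after serotonin on the array. Its RT-qPCR over independent experiments, however, found CYP1A1 significantly lower after both stimuli, and that difference was not resolved here. TIPARP, a negative regulator of the receptor, was 8.47-fold higher, with levels of 0.547 in PIP, 0.410 in pMA, 3.48 after serotonin and 0.407 after TNF-α. CYP1A1, TIPARP and the 9 genes were all higher on the same single array, and an AHR and an NRF2 part in the values of NQO1 cannot be told apart with it.

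**Figure D5:**
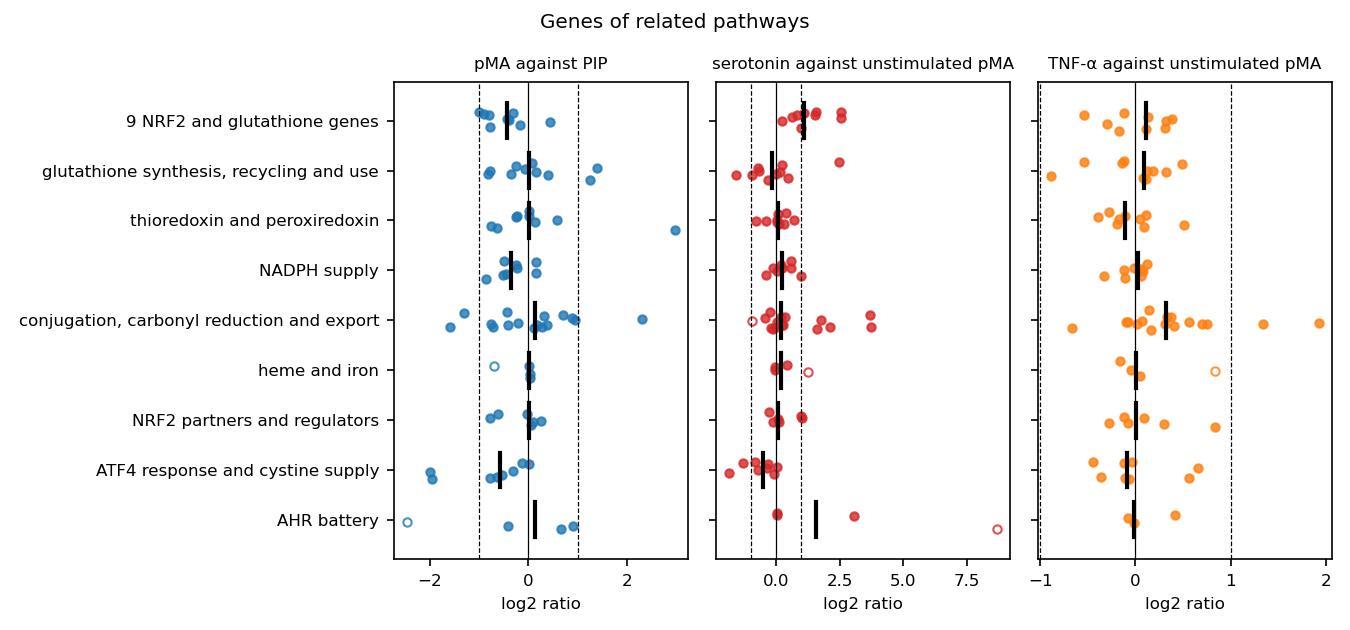
Log2 ratio of each gene of the 8 pathway lists and of the 9 NRF2 and glutathione genes (top row) for pMA against PIP, serotonin against unstimulated pMA and TNF-α against unstimulated pMA, with filled points for measured ratios, open points for bounds, black bars for medians and dashed lines at 2-fold. After serotonin the median of the 9 genes is 1.09 and that of the other glutathione genes -0.17.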

How the data were processed

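Labelled cRNA from 200 ng of pooled RNA per condition was hybridised to 1-colour porcine arrays, 4 arrays on 1 slide. The methods text also names a mouse array and another scanner program, while the deposited files are porcine and were written by Agilent Feature Extraction 10.7.3.1, which per the file headers subtracted the background. The deposited processed intensity (linear scale) of each spot was used. The series value table holds a signal that the authors scaled, equal to this intensity divided by 1 number per array, and served as a check only.

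Control and outlier spots were left out, log2 of each array's 75th percentile was subtracted, and repeated spots were averaged. A probe not well above background on an array was given a bound from the faintest probe that was. A gene with several probes was represented by the probe with the highest mean. The fold threshold was 2, as in the methods. The share of gene names past it was computed over all names with a ratio. From each pathway list the 3 genes with the largest ratio past 2-fold were named, with CYP1A1, GSS, TXN, SRXN1, SLC3A2 and BACH1 in any case. A further gene of that rule is not reported here. The genes and lists were chosen with earlier results of these data known. The calculation was tested on simulated data. Python 3.11.15, pandas 2.3.3, numpy 2.4.6, R 4.3.3 and limma 3.58.1 were used.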

Additional observations from a re-analysis of the deposited data

How the results depend on the processing

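After serotonin no gene changed sign in 90 recomputed values, and the median log2 ratio of the 9 genes ranged from 1.08 to 1.22 over 11 ways of processing. The settings on the background filter and on outlier spots left these values unchanged, and the series value table moved them only slightly. Every setting also used the same arrays, for genes picked for this response, so the count of signs is not read as support. The number of genes past the threshold after serotonin was 8 at 1.5-fold and 2 at 4-fold, in place of 5 at 2-fold, and 6 with median or spike-in scaling, where SLC7A11 passed. Over all gene names 8.34% were higher and 12.6% lower at 1.5-fold, and 0.299% and 0.681% at 4-fold. With median scaling these shares were 2.35% and 4.32%, and with spike-in scaling 3.09% and 3.48%. For pMA against PIP the number of the 9 genes was 4, all lower, when arrays were scaled to their medians, 4 at 1.5-fold, and 1, higher, when the probe with the widest range stood for each gene, in place of 0. Over all gene names 4.50% were higher and 8.68% lower with median scaling, 23.4% and 10.6% at 1.5-fold, and 11.1% and 4.12% with that choice of probe. With spike-in scaling TXNRD1 and KEAP1 had the opposite sign for pMA against PIP, 0.07 and 0.20, within the technical SD or near it. For TNF-α the number was 0 under every setting run, 1.5-fold included, where 12.1% of all gene names passed. After TNF-α TXNRD1 alone changed sign, where another probe or the median of its probes stood for it. No paired analysis was possible because each condition had 1 array. With 1 array per condition no value tells a treatment from a difference between cultures, labelling or hybridisation, and these cannot be told apart.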
